A study of Rattus norvegicus with 6 samples.

Results

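The 10 TGF-beta, activin and BMP genes described here are Tgfbr1, Tgfbr2, Bmpr1a, Acvr2a, Smad2, Smad4, Smad7, Bmp4, Inhba and Fst. Every accessible site (ACS) that the deposited annotation lists with 1 of these genes was taken, which comes to 236 of 101603 distinct ACSs and 10 of 13834 genes. The rule used gene names only, and the genes were chosen with earlier results of these data known. The libraries were ATAC-seq of dissociated pancreatic islet cells from Sprague-Dawley rats that received no treatment. In ATAC-seq a transposase, Tn5, cuts into open DNA far more often than into packed DNA, and each such event is an integration, so the count of integrations in an ACS measures its accessibility. The P10 group held 3 libraries, each from a few pooled pups of 1 litter at postnatal day 10, with both sexes. The Adult group held 3 libraries from 3 male rats. The labels do not give their age in days, and the study describes them as 3 months old. By the study's methods, P10 pancreases were digested by hand shaking in collagenase, while in adults collagenase was injected into the duct. Age, sex, pooling and digestion therefore differed together between the groups and cannot be told apart. The islets hold several cell types, so an ACS that is open in fewer cells and an ACS that is less open in each cell cannot be told apart either.

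Ligands of this family bind a pair of type II and type I receptor kinases at the cell surface. The type I receptor phosphorylates the receptor-regulated SMADs, which join SMAD4 and act on genes in the nucleus. SMAD2 and SMAD3 carry the TGF-beta and activin signal, and SMAD1, SMAD5 and SMAD9 carry the BMP signal. SMAD7 blocks the receptors, and follistatin, the product of Fst, binds activin outside the cell. In the pancreas the family is known for its part in endocrine differentiation, in islet cell proliferation and in insulin secretion. The Adult libraries held 7916919 to 11903909 integrations in ACSs and the P10 libraries 13491534 to 21168463. This depth thus differed with age too and cannot be told apart from it, while the total reads that the study gives overlapped between the ages. The ACSs of the 10 genes took between 0.180% and 0.211% of the integrations in ACSs. Library sizes were adjusted with TMM factors (trimmed mean of M values), and levels are given as CPM, the integrations of an ACS for every 1000000 of the adjusted library, for P10 replicates 1, 2 and 3 and Adult replicates 4, 5 and 6 in that order. A positive log2 fold change means more integrations in Adult islets and is given with its standard error. An ACS was called Up or Down at an unadjusted p-value under 0.05 and an adjusted p-value (FDR) under 0.2 over all ACSs. The number of integrations in an ACS limits the precision, which is lowest where a library holds few.

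Promoter sequence was at hand for 9 of the 10 genes, from RefSeq on the GRCr8 build, as the 250 bases before the gene start. The ACS coordinates are on Rn5, so the 2 were not joined by position. The 3 promoters shown are those of Smad2, whose start holds the ACS with the highest mean count of all 236, of Smad7, which is induced by the pathway it blocks, and of Bmp4, whose start was the least accessible of those with an ACS. Capitals mark GGCGCC, a GC-rich SMAD motif, and CAGAC or its reverse complement GTCTG, the 5 bases around the short SMAD motif, searched on both strands. They lie at chr18:72125094-72125343, plus strand (Smad2, the first of 2 entries), chr18:71263258-71263507, plus strand (Smad7) and chr15:22101934-22102183, minus strand (Bmp4), and each is written 5′ to 3′ on the strand of its gene.
Smad2: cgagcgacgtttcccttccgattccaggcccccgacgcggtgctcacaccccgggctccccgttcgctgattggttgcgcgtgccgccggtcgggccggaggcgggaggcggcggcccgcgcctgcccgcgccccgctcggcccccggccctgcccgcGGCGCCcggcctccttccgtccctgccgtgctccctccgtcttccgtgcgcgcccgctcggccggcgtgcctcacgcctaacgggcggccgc
Smad7: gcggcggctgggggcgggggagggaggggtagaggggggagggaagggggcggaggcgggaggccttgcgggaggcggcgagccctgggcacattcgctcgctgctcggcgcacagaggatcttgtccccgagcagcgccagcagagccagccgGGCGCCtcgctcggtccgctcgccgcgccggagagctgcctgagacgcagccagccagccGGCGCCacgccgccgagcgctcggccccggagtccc
Bmp4: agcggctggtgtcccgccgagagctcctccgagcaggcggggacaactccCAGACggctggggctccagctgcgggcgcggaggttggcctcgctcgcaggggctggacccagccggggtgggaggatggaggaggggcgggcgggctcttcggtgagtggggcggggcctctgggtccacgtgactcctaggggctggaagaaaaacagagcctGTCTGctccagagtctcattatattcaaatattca
GGCGCC starts 92 bases before the start of Smad2 (234 bases before that of its second entry), and 96 and 36 bases before that of Smad7. Of the 33469 promoter entries, 8.69% held GGCGCC in these 250 bases, and Tgfbr1 also held it, 242 bases before the start. CAGAC or GTCTG starts 200 and 35 bases before the start of Bmp4, and 42.9% of all promoter entries held one, so this match is common. No promoter window of the other members held either motif. The GC share of these windows was 79.6% and 82.8% for the entries of Smad2, 78% for Smad7, 75.6% for Tgfbr1, 66.4% for Bmp4, 58% for Tgfbr2, 49.2% for Acvr2a, 43.6% for Inhba, 30.8% for Smad4 and 28.4% for Bmpr1a, beside a median of 51.2% over all entries. The 4 genes under that median are the 4 members with no ACS in the TSS class. That class goes by the first base of an ACS, and Acvr2a does have 1 ACS that reaches within 1 kb of its start. Whether the annotated starts, among them those of Smad4 and Bmpr1a, are the ones used in islet cells was not tested. The match of low GC share and class thus depends on the annotation and the class rule. It is a description of 9 genes without a test.

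No ACS at the start of these genes passed the test. The annotation puts an ACS in the TSS class when its first base lies less than 1 kb from a gene start, and 7 ACSs at 6 of the genes were of this class. None of the 7 was called in either direction by edgeR, where 2.73% of all TSS-class ACSs were called Up and 7.87% Down, and none of the 7 had an unadjusted p-value under 0.05. Limma voom called none either, nor did DESeq2 among the 6 to which it gave an adjusted p, which leaves out that of Bmp4. Smad2 encodes a SMAD of the TGF-beta and activin branch. Its start, chr18:71672202-71673512, overlaps the first base of the gene and held 84.6, 81.3 and 82 CPM at P10 and 90.7, 77.6 and 78.4 CPM in Adult, from 608 to 1819 integrations a library. Adult replicate 4 lay above the P10 libraries and the other Adult libraries below them, and the log2 fold change was -0.01 ± 0.15 (adjusted p = 0.989). Tgfbr1, the type I receptor of TGF-beta, had 47.9, 52.1 and 47.2 CPM at P10 and 53.5, 50.8 and 52.5 CPM in Adult at chr5:67575179-67576141, a log2 fold change of 0.09 ± 0.15. The ages overlapped there too. Smad7, the inhibitory SMAD, had 19.1, 15.1 and 12.8 CPM at P10 and 15.8, 15.5 and 16.6 CPM in Adult at chr18:70530351-70530733, and its 3 Adult values lay inside the P10 range (log2 fold change 0.02 ± 0.21).

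Lower levels were measured at the starts of Tgfbr2, Fst and Bmp4. Tgfbr2 encodes the type II receptor of TGF-beta, and its start at chr8:123670976-123671464 held 9.11, 9.49 and 10.4 CPM at P10 and 9.4, 9.93 and 6.57 CPM in Adult (log2 fold change -0.15 ± 0.24), the lowest Adult value being that of replicate 6. Fst had 2 ACSs of the TSS class. The one over the start, chr2:65583337-65583693, held 4.42, 4.07 and 5.82 CPM at P10 and 4.07, 5.26 and 2.58 CPM in Adult, and the one 608 bases upstream, chr2:65584152-65584353, held 2.46, 2.43 and 1.48 and 1.63, 2.53 and 2.45 CPM. Their log2 fold changes of -0.25 ± 0.31 and 0.05 ± 0.37 were both within the spread. Bmp4 encodes a BMP ligand, and its start-proximal ACS at chr15:24739250-24739460 held only 22, 15 and 26 integrations at P10 and 10, 8 and 4 in Adult. Scaled to CPM these were 1.02, 1.07 and 1.37 at P10 and 0.904, 0.779 and 0.516 in Adult, so every Adult library lay under every P10 library. The log2 fold change of -0.62 ± 0.46 did not pass the test (adjusted p = 0.485). Per kilobase of ACS, the mean level over the 6 libraries was 62.9 CPM at Smad2, 52.6 at Tgfbr1, 41.3 at Smad7, 18.7 at Tgfbr2, 12.2 and 10.7 at Fst and 4.47 at Bmp4.

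The other 4 genes had no TSS-class ACS, and their ACS with the highest mean count is given in its place. At Acvr2a, which encodes a type II receptor of activin, it lay in the proximal class (1 to 10 kb) at chr3:38112402-38113393, its near end 335 bases upstream of the start, with 57.7, 58.7 and 61.6 CPM at P10 and 57.6, 47.9 and 54.1 CPM in Adult. All 3 Adult values lay under the P10 values, by a log2 fold change of -0.16 ± 0.15 that did not pass the test (adjusted p = 0.625). At Inhba, which encodes the beta A subunit shared by activin A and inhibin A, it lay 1690 bases upstream at chr17:49980466-49981353 and held 70.8, 75.2 and 80.2 CPM at P10 and 90.7, 66 and 75.7 CPM in Adult (log2 fold change 0.04 ± 0.15). The ages overlapped at this ACS. Smad4 and Bmpr1a had theirs in the distal class (over 10 kb). The Smad4 ACS at chr18:68815741-68817010, 13.3 kb upstream, was 1270 bases wide and held 31.6, 33.8 and 28.6 CPM at P10 and 34.8, 31.5 and 33.6 CPM in Adult. The ACS of Bmpr1a, a type I receptor of BMPs, at chr16:9176641-9177958, 48.7 kb upstream, was 1318 bases wide and held 41, 44.4 and 45 and 46.9, 38.8 and 44.6 CPM. Both are wider than the median distal ACS (353 bases) and the median TSS-class ACS (667 bases) of the whole table, and their log2 fold changes of 0.09 ± 0.17 and 0.00 ± 0.16 were within the spread.

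**Figure D1:**
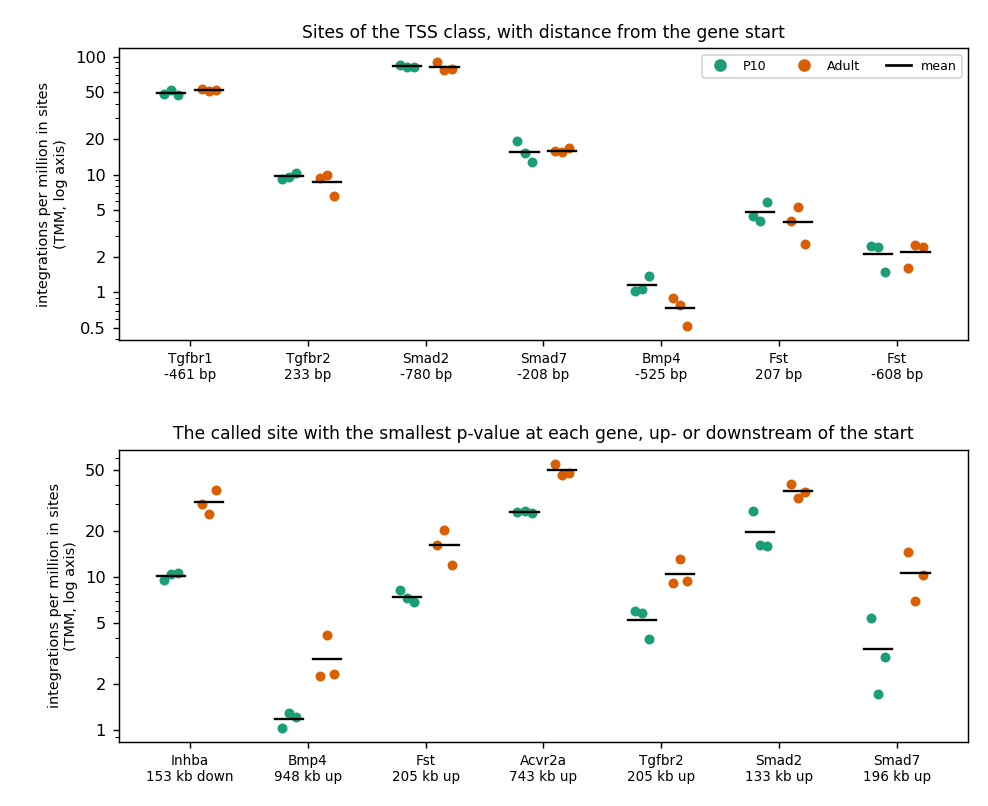
Level in CPM (TMM-scaled, log axis) in each P10 library (green) and Adult library (orange), with the mean of each age as a bar. The upper panel shows the 7 TSS-class ACSs, where the ages overlap at all but Bmp4, and the lower panel the called ACS with the smallest p-value at each of 7 genes, where all 3 Adult values lie above all 3 P10 values.

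Away from the starts, ACSs of these genes changed in both directions. Of the 236, 40 were called Up and 16 Down, where 12.3% of all ACSs were called Up and 6.63% Down. These are 16.9% and 6.78% of the members, and the share called Down is close to that of the whole table. The distal class held 39 of the Up and all 16 Down calls, among 213 ACSs, beside 13.8% Up and 6.45% Down over all distal ACSs. The proximal class held the remaining Up call, at Inhba, among 16. All 3 Adult libraries lay above all 3 P10 libraries at 42 of the 236 and below them at 24, beside 13.8% and 10.9% of all ACSs. The median log2 fold change was 0.11 over the members and -0.01 over all ACSs. Of the 236 members, 63 had an unadjusted p-value under 0.05, beside 21478 of all 101603 ACSs. DESeq2 called 31 Up and 12 Down and limma voom 36 and 14. DESeq2 gave no adjusted p for 18 members, 4 of them called by edgeR. Without P10 replicate 2 the counts fell to 22 Up and 7 Down, and without P10 replicate 3 to 24 and 8. Over all ACSs the calls fell too, from 12504 Up and 6738 Down to 7973 and 3285 without P10 replicate 2. Without P10 replicate 3 all ACSs gave 8908 Up and 4232 Down. Each of the 56 called ACSs kept its direction in every fit that left out 1 library, and 16 of the 40 Up and 3 of the 16 Down were called in all 6.

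The split between Up and Down depended on the scaling. With plain column sums as library sizes, the median of all ACSs moved to -0.10 and the members gave 27 Up and 22 Down. All 101603 ACSs then gave 10447 Up and 10732 Down, against 12504 and 6738 with TMM. With each library's total reads, which count reads outside ACSs too, the median of all ACSs moved to -0.84 and the members gave 2 Up and 115 Down. All 101603 ACSs gave 1062 Up and 61663 Down with this scaling. Of the 40 Up members, 19 then still lay above 0. All 40 lay above the median of all ACSs, but this scaling moves all ACSs nearly alike. For ACSs chosen as Up with TMM, this could hardly come out otherwise. Since the split moved with the scaling, all directions given here are relative to the bulk of ACSs. Under every scaling run the median of the members lay 0.12 to 0.13 above that of all ACSs. A rescaling can hardly move this gap, so its steadiness carries no weight. Leaving out 1 library can move it, and it was then 0.074 (without P10 replicate 1) to 0.155 (without Adult replicate 4).

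The members lay far from their genes. Their median distance from the gene start was 214 kb, where the median over all ACSs was 61.1 kb, and 70.3% lay upstream of the gene, beside 41.8% of all ACSs. Bmp4 had 64 ACSs, Inhba 42, Acvr2a 37, Tgfbr2 29, Smad7 27, Fst 13, Smad2 12, Tgfbr1 and Smad4 5 each and Bmpr1a 2, where the median gene had 3. More than 10 kb and up to 100 kb away, 4 of 44 were Up and 5 Down, and between 100 and 500 kb, 26 of 111 were Up and 7 Down. Over all ACSs the shares called Up at those distances were 13.9% and 14.2%, and those called Down 6.69% and 6.24%. Of the 17 ACSs inside the genes, 1 was called by edgeR, at Tgfbr2 and Down, 2 had an unadjusted p-value under 0.05, and the other 16 were called neither by limma voom nor, where it gave an adjusted p, by DESeq2. Of all 22433 ACSs inside genes, 16% were Up and 6.7% Down, and 5649 had an unadjusted p-value under 0.05. At 3 of the 17 the Adult values all exceeded the P10 values, as they did at 3862 of the 22433. Each ACS is listed with its nearest gene, so the listing does not show that the gene is its target.

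**Figure D2:**
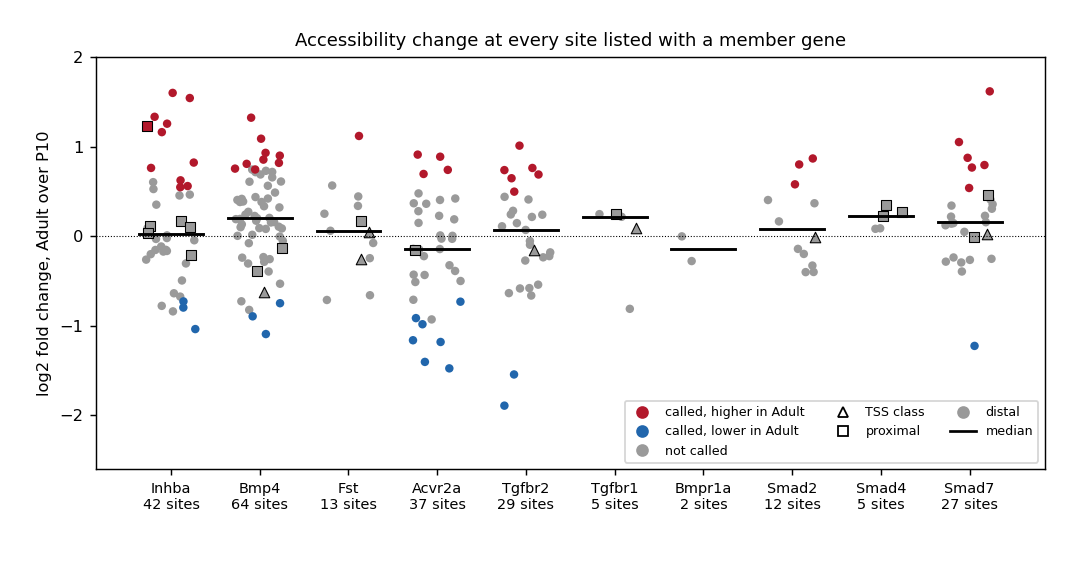
Log2 fold change, Adult over P10, of each of the 236 ACSs by gene, with called ACSs in red (Up, 40) and blue (Down, 16), the class as the marker's shape and the median of each gene as a bar. No triangle, the TSS class, is coloured, and Acvr2a holds the most Down calls (7 of 16).

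Among the ligands, Inhba had 11 Up and 3 Down among its 42 ACSs, the most Up calls of the 10 genes. The clearest change was at chr17:49825458-49825995, 153 kb past the gene start on the downstream side, with 205, 147 and 201 integrations at P10 and 333, 266 and 288 in Adult. Scaled, the P10 libraries held 9.53, 10.5 and 10.6 CPM and the Adult libraries 30.1, 25.9 and 37.1 CPM, a 3.03-fold difference (log2 fold change 1.6 ± 0.20, adjusted p = 5.08e-06). The ages did not overlap, and the call held without any 1 library. A stronger ACS at chr17:49180713-49181518, 798 kb downstream, went from 32.9, 32.5 and 33 CPM at P10 to 87.5, 62.2 and 98.9 CPM in Adult (log2 fold change 1.33 ± 0.17, adjusted p = 6.81e-06). Its P10 libraries were nearly equal and its Adult libraries spread, with replicate 5 lowest. At chr17:49235145-49235373, 744 kb downstream, the Adult libraries agreed closely at 11.7, 11.4 and 11.9 CPM, above 3.49, 4.99 and 3.59 CPM at P10 (log2 fold change 1.54 ± 0.25, adjusted p = 1.55e-04). Upstream of the gene, chr17:50264889-50265215, 286 kb away, held 9.39, 9.41 and 11 CPM at P10 and 20.5, 21.1 and 25.4 CPM in Adult (log2 fold change 1.16 ± 0.20, adjusted p = 3.60e-04). All 4 were called whichever library was left out.

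The last of these opens a run of 3 neighbouring Up ACSs over 6159 bases. The other two, chr17:50269029-50269981 and chr17:50270668-50271047, had log2 fold changes of 0.55 ± 0.17 and 0.56 ± 0.19 and mean counts of 621 and 369. They, like the remaining ACSs of this paragraph, were chosen for naming after their values were seen. The proximal Up ACS of the gene lay 7.11 kb upstream at chr17:49985888-49986223 and held 5.07, 7.56 and 7.45 CPM at P10 and 17.1, 13.2 and 16.8 CPM in Adult (log2 fold change 1.23 ± 0.24, adjusted p = 8.54e-04). It stood between the ACS 1690 bases upstream, which was not called, and the distal ones. The 3 Down ACSs lay downstream, 1 at chr17:49834806-49835351 with a log2 fold change of -0.80 ± 0.23, on the same side as the ACS with the clearest rise, and 2 side by side at chr17:49191259-49191610 and chr17:49191712-49191960 with -0.73 ± 0.26 and -1.04 ± 0.36. ACSs of Inhba on 1 side of the gene thus moved in both directions. The Up count fell to 7 without P10 replicate 2, and the Down count was 1 without P10 replicate 3 and 5 without Adult replicate 6.

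Bmp4 had 9 Up and 3 Down among 64 ACSs, of which 61 were distal. The Up ACS with the smallest p-value lay 948 kb upstream at chr15:25686963-25687188 and held 22, 18 and 23 integrations at P10 and 25, 43 and 18 in Adult. Scaled, these were 1.02, 1.28 and 1.22 CPM at P10 and 2.26, 4.19 and 2.32 CPM in Adult, with replicate 5 well above the other Adult libraries (log2 fold change 1.32 ± 0.39, adjusted p = 0.0274). At chr15:25839977-25840333, 1101 kb upstream, the values were 1.67, 1.71 and 1.96 CPM at P10 and 2.98, 4.58 and 3.87 CPM in Adult (log2 fold change 1.09 ± 0.34, adjusted p = 0.0403). Here too the highest Adult value was that of replicate 5. The third, chr15:24443421-24443668 at 295 kb downstream, held 4.51, 2.85 and 4.65 CPM at P10 and 5.6, 7.79 and 6.96 CPM in Adult (log2 fold change 0.75 ± 0.28, adjusted p = 0.105), and lost its call without Adult replicate 5 or P10 replicate 2, where the adjusted p was 0.25 to 0.432. Its neighbour chr15:24445124-24445971, the Bmp4 ACS with the highest mean count, held 45.4, 41.3 and 41.6 CPM at P10 and 58.3, 41.3 and 47.1 CPM in Adult and was not called. The Down ACS at chr15:24963673-24963931, 225 kb upstream, held 1.58, 1.71 and 2.38 CPM at P10 and 0.904, 1.17 and 0.516 CPM in Adult (log2 fold change -1.09 ± 0.44, adjusted p = 0.126). It lost its call without Adult replicate 4, Adult replicate 6, P10 replicate 2 or P10 replicate 3, where the adjusted p was 0.21 to 0.369. The other two Down ACSs lay nearer, 30.8 and 41.6 kb upstream, with log2 fold changes of -0.89 ± 0.38 and -0.75 ± 0.31. The Up count of the gene depended on single libraries, and was 2 without Adult replicate 5, 3 without P10 replicate 1, and 5 without P10 replicate 2 or 3. The Down count was 1 without Adult replicate 4, 5 or 6 or P10 replicate 3, and 0 without P10 replicate 2.

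Fst, whose product binds and blocks activin, had 1 Up ACS among 13 and none Down by edgeR. It lay 205 kb upstream at chr2:65788889-65789473 and held 177, 102 and 129 integrations at P10 and 178, 209 and 93 in Adult. After scaling the P10 libraries held 8.23, 7.28 and 6.82 CPM and the Adult libraries 16.1, 20.4 and 12 CPM, a 2.17-fold difference (log2 fold change 1.12 ± 0.23, adjusted p = 0.00202) that was called without any 1 library. The Fst ACS with the highest mean count, chr2:66111908-66112995 at 528 kb upstream, held 74.7, 56.4 and 64.7 CPM at P10 and 65.8, 52.6 and 67.7 CPM in Adult, and the ages overlapped. Among the 12 Fst ACSs without a call, log2 fold changes ran from -0.71 to 0.57, and 1 of the 13 had an unadjusted p-value under 0.05. Limma voom called no Fst ACS Down either, nor did DESeq2 where it gave an adjusted p. Without Adult replicate 5 there were 2 Up ACSs, and without Adult replicate 6 there was 1 Down.

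**Figure D3:**
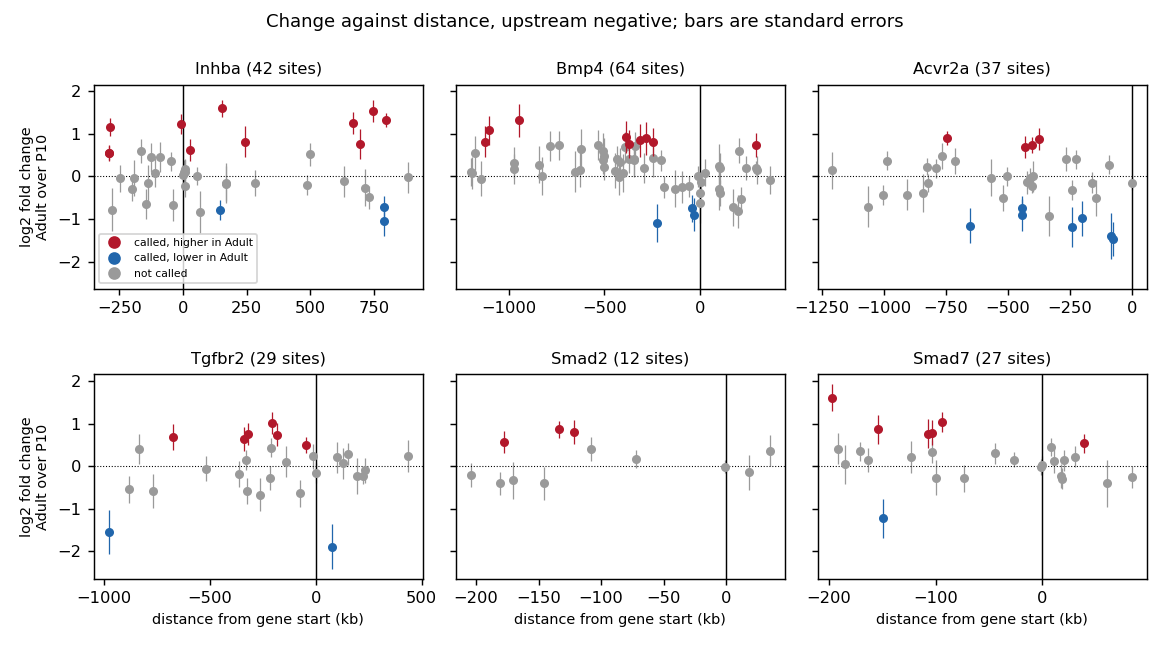
Log2 fold change, Adult over P10, with its standard error, against the distance from the gene start in kb (upstream negative, on an axis of its own for each gene), for the 6 genes with 3 or more called ACSs. Up ACSs (red) of Inhba lie on both sides of the gene, those of Smad2 all lie upstream between 100 and 200 kb, and all 7 Down ACSs (blue) of Acvr2a lie upstream.

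Among the receptors, Acvr2a had more Down than Up calls, with 7 Down and 4 Up among 37 ACSs, all upstream of the gene. The ACS with the smallest p-value was nonetheless Up. It lay 743 kb upstream at chr3:37370294-37370760 and held 26.7, 26.8 and 26.2 CPM at P10 and 55.2, 46.6 and 48.1 CPM in Adult (log2 fold change 0.91 ± 0.16, adjusted p = 4.23e-04), from 373 to 611 integrations a library. The P10 libraries agreed closely and all Adult libraries stood above them. A pair of Up ACSs at chr3:37710915-37711436 and chr3:37739146-37739569, 403 and 375 kb upstream, held 16.8, 13.8 and 16.2 and 4.83, 4.78 and 4.65 CPM at P10. Their Adult values were 26.6, 21.5 and 30.4 and 9.58, 6.62 and 10.3 CPM, for log2 fold changes of 0.74 ± 0.19 (adjusted p = 0.0138) and 0.89 ± 0.26 (adjusted p = 0.0281). The Down ACS with the smallest p-value was nearer to the gene, 75.3 kb upstream at chr3:38038462-38038746, with 64, 31 and 59 integrations at P10 and 10, 12 and 7 in Adult. This is 2.97, 2.21 and 3.12 CPM at P10 and 0.904, 1.17 and 0.902 CPM in Adult, or 2.78 times as many at P10 (log2 fold change -1.48 ± 0.40, adjusted p = 0.0156). These 4 were called whichever library was left out. A second Down ACS, chr3:38030010-38030239, makes with it a run of 2 over 8737 bases and held 19, 13 and 23 and 4, 5 and 2 integrations (log2 fold change -1.4 ± 0.53), and was named after its values were seen. The Down count was 4 without Adult replicate 4 or P10 replicate 3, and 3 without P10 replicate 2. On chromosome 3, which carries Acvr2a, 7.99% of all ACSs were Up and 13.8% Down, with a median log2 fold change of -0.17. What this has to do with the Acvr2a calls was not tested.

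Tgfbr2 had 6 Up and 2 Down among 29 ACSs. The Down ACS at chr8:123594376-123594599 is the single ACS that lies inside the gene, 76.8 kb past its start, and held 31, 23 and 30 integrations at P10 and 2, 8 and 2 in Adult. Its P10 values were 1.44, 1.64 and 1.59 CPM and its Adult values 0.181, 0.779 and 0.258 CPM, the lowest log2 fold change of the 236 (-1.89 ± 0.53, adjusted p = 0.0194). With so few integrations the size of this change is loosely known, and it ranged from -2.81 to -1.49 when 1 library was left out. The other Down ACS, 977 kb upstream at chr8:124648046-124648271, held 33, 19 and 25 and 9, 2 and 3 integrations (log2 fold change -1.54 ± 0.51, adjusted p = 0.0546). DESeq2 gave no adjusted p for either, and limma voom called both Down. Of the Up ACSs, chr8:123876119-123876566, 205 kb upstream, held 6, 5.78 and 3.91 CPM at P10 and 9.13, 13 and 9.41 CPM in Adult (log2 fold change 1.01 ± 0.26, adjusted p = 0.0113) and was called without any 1 library. At chr8:123989902-123990394, 319 kb upstream, the values were 5.62, 4.42 and 4.76 CPM at P10 and 8.4, 10.1 and 6.57 CPM in Adult (log2 fold change 0.76 ± 0.26, adjusted p = 0.0665), and the call was lost without Adult replicate 5 or P10 replicate 2, where the adjusted p was 0.218 to 0.262. The Tgfbr2 ACS with the highest mean count, chr8:123715979-123716395 at 44.8 kb upstream, held 18.5, 16 and 14.4 CPM at P10 and 25.2, 20.6 and 23.2 CPM in Adult. Its log2 fold change of 0.50 ± 0.19 (adjusted p = 0.115) was not called without Adult replicate 4, Adult replicate 6, P10 replicate 2 or P10 replicate 3, where the adjusted p was 0.21 to 0.355. The Up count was 3 without Adult replicate 4 and 2 without P10 replicate 2 or P10 replicate 3, and the Down count was 4 without Adult replicate 5.

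Tgfbr1 and Bmpr1a, the type I receptors, had no called ACS by edgeR or limma voom, nor by DESeq2 where it gave an adjusted p, among 5 and 2 ACSs. None of these 7 had an unadjusted p-value under 0.05. Beside its start, Tgfbr1 had a second strong ACS 5.76 kb upstream at chr5:67569875-67570768, with 48.3, 44.9 and 43.9 CPM at P10 and 55.9, 49.7 and 57 CPM in Adult. All 3 Adult libraries lay above the P10 libraries, by 0.25 ± 0.15 on the log2 scale, which did not pass the test (adjusted p = 0.393). The 2 ACSs inside Tgfbr1 had log2 fold changes of 0.25 ± 0.31 and 0.22 ± 0.31. The fifth, 75.5 kb upstream, held a mean of only 6.5 integrations, and the second Bmpr1a ACS a mean of 15.7.

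Among the intracellular members, Smad2 had 3 Up ACSs among 12 and none Down by edgeR or limma voom, nor by DESeq2 where it gave an adjusted p. All 3 lay upstream between 122 and 177 kb from its start. At chr18:71539512-71539989 the P10 libraries held 27.1, 16.3 and 16 CPM and the Adult libraries 40.3, 32.7 and 35.7 CPM (log2 fold change 0.87 ± 0.20, adjusted p = 0.00498). P10 replicate 1 stood above the other P10 libraries, and the call held without any 1 library. At chr18:71551245-71551622 the values were 5.02, 3.35 and 2.96 CPM at P10 and 6.87, 5.84 and 7.22 CPM in Adult (log2 fold change 0.80 ± 0.29, adjusted p = 0.0799), a call lost without P10 replicate 2 or P10 replicate 3, where the adjusted p was 0.283 to 0.303. At chr18:71495701-71496161 they were 7.34, 7.77 and 4.39 and 11.7, 8.86 and 8.38 CPM (log2 fold change 0.58 ± 0.26, adjusted p = 0.19), and the call was lost without Adult replicate 4, P10 replicate 2 or P10 replicate 3, where the adjusted p was 0.231 to 0.573. It was also lost with median-of-ratios factors, at the limit (adjusted p = 0.2), the filter at a mean of 50 counts (adjusted p = 0.223), DESeq2 (adjusted p = 0.217), column sums (adjusted p = 0.267) and cyclic loess (adjusted p = 0.3). The Up count of Smad2 was 1 without P10 replicate 2 or P10 replicate 3. Smad4, the SMAD shared by all branches, had 5 ACSs and no call by edgeR or limma voom, nor by DESeq2 where it gave an adjusted p. None had an unadjusted p-value under 0.05, and its log2 fold changes ran from 0.08 to 0.34, all above 0 with TMM, while column sums turned that of its strongest ACS negative.

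Smad7 had 6 Up and 1 Down among 27 ACSs. The largest log2 fold change of the 236 was at chr18:70334105-70334510, 196 kb upstream, with 116, 24 and 57 integrations at P10 and 160, 71 and 80 in Adult. Scaled, the P10 libraries held 5.39, 1.71 and 3.01 CPM and the Adult libraries 14.5, 6.91 and 10.3 CPM (log2 fold change 1.62 ± 0.33, adjusted p = 0.00151). Both ages spread widely, and the estimate ranged from 1.3 to 2.12 when 1 library was left out, with the call kept. At chr18:70436901-70437321, 93.7 kb upstream, the libraries held 13.2, 7.13 and 8.3 CPM at P10 and 23.3, 18.9 and 17.5 CPM in Adult (log2 fold change 1.05 ± 0.23, adjusted p = 0.00355), again with P10 replicate 1 the highest of its age. The ACS at chr18:70426781-70427005 held 3.81, 2.57 and 4.44 and 7.41, 6.04 and 5.41 CPM (log2 fold change 0.80 ± 0.29, adjusted p = 0.0879) and lost its call without Adult replicate 4 or P10 replicate 2, where the adjusted p was 0.278 to 0.389. It makes a run of 2 Up ACSs over 3204 bases with its neighbour. The Down ACS, chr18:70381804-70382031, held 25, 51 and 56 integrations at P10 and 12, 6 and 13 in Adult, and the ages overlapped (log2 fold change -1.22 ± 0.46, adjusted p = 0.103). Its call was lost without Adult replicate 5, P10 replicate 2 or P10 replicate 3, where the adjusted p was 0.288 to 0.408, and with limma voom (adjusted p = 0.206) and cyclic loess (adjusted p = 0.237). The Smad7 ACS with the highest mean count, chr18:70503699-70505000 at 26.9 kb upstream, held 32.7, 28.2 and 28 CPM at P10 and 36.6, 32.9 and 29.5 CPM in Adult and was not called. The Up count was 3 without Adult replicate 4, P10 replicate 2 or P10 replicate 3. On chromosome 18, which carries Smad2, Smad4 and Smad7, 19.7% of all ACSs were Up and 4.38% Down, with a median log2 fold change of 0.12, and what this has to do with these calls was not tested.

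Summed over all ACSs of a gene, 2 of the 10 genes were called, both Up, where 10.5% of the 13834 gene totals were Up and 7.69% Down. Inhba held 336, 396 and 433 CPM at P10 and 516, 463 and 606 CPM in Adult, a 1.36-fold difference (log2 fold change 0.45 ± 0.15, adjusted p = 0.084). The call was lost without Adult replicate 6 or P10 replicate 2, where the adjusted p was 0.281 to 0.319. Smad7 held 231, 207 and 209 CPM at P10 and 255, 248 and 274 CPM in Adult (log2 fold change 0.26 ± 0.12, adjusted p = 0.191), close to the limit. It lost its call with column sums as library sizes (adjusted p = 0.33) and without Adult replicate 4, Adult replicate 6, P10 replicate 2 or P10 replicate 3, where the adjusted p was 0.331 to 0.546. All 3 Adult totals lay above all 3 P10 totals at 6 genes (Inhba, Smad7, Smad2, Smad4, Tgfbr1 and Tgfbr2) and below them at none, beside 13.6% and 12.6% of all gene totals. The Smad2 total went from 164, 162 and 154 CPM at P10 to 191, 170 and 188 CPM in Adult (log2 fold change 0.19 ± 0.11, adjusted p = 0.312). For Tgfbr2 these were 171, 170 and 176 and 193, 202 and 185 CPM (adjusted p = 0.377). The Acvr2a total, in which Up and Down ACSs are added, held 354, 425 and 426 CPM at P10 and 425, 376 and 470 CPM in Adult and overlapped between the ages. The 8 totals without a call had log2 fold changes between -0.02 at Bmpr1a and 0.19 at Smad2. With total reads as library sizes all 10 totals lay below 0, 9 of them called, and that of Inhba was -0.38, above the median of -0.84 over all ACSs.

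**Figure D4:**
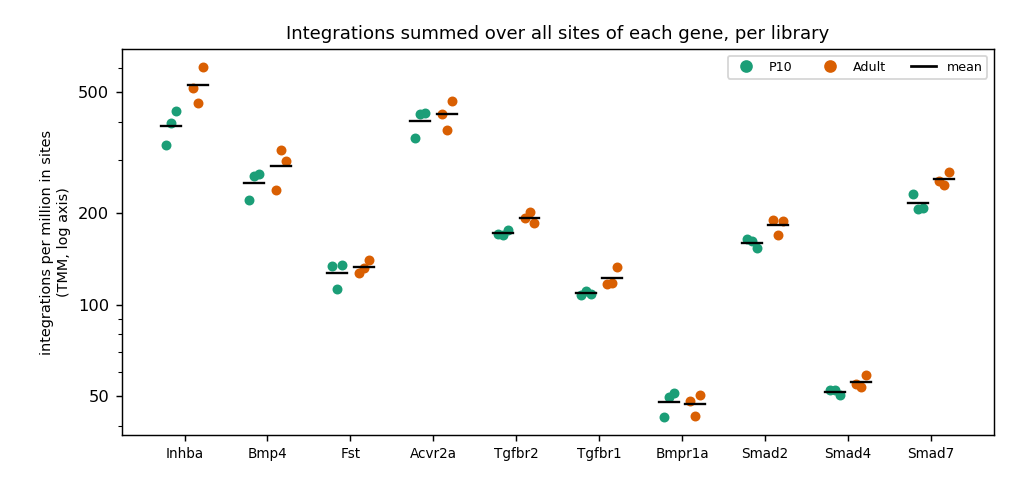
Level in CPM summed over all ACSs of each gene (TMM-scaled, log axis), per P10 library (green) and Adult library (orange), with the mean of each age as a bar. The ages separate at Inhba, Tgfbr2, Tgfbr1, Smad2, Smad4 and Smad7 and overlap at Bmp4, Fst, Acvr2a and Bmpr1a.

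Other genes of the pathway were taken from a list of 45 chosen by textbook role, of which 40 were measured, with 376 ACSs. The annotation lists no ACS under the names Nodal, Eng, Ski, Skil and Fstl1. Of the 376, 43 were Up and 44 Down, or 11.4% and 11.7%, beside 12.3% and 6.63% of all ACSs, and the median log2 fold change was -0.11. The Up count was 28 without Adult replicate 4, and the Down count 23 without P10 replicate 2 and 26 without P10 replicate 3. Over all ACSs the Up count fell from 12504 to 9709 without Adult replicate 4. The Down count of all ACSs fell from 6738 to 3285 and 4232 without P10 replicates 2 and 3. With column sums the counts of the 376 were 31 Up and 60 Down, beside 10447 and 10732 of all 101603 ACSs. By role, the ligands had 12 Up and 13 Down among 115 ACSs, the receptors 9 and 6 among 69, the intracellular proteins 10 and 3 among 66, the inhibitors and binding proteins 4 and 14 among 79, and the common targets 8 and 8 among 47. Of the 40 gene totals, 3 were Up (Smad1, Bmp6 and Chrd) and 6 Down (Id1, Id3, Bmp7, Acvr1b, Ltbp2 and Grem1), beside 10.5% and 7.69% of all gene totals. Grem1, Id1, Bmp7, Acvr1 and Acvr1c are among the genes on chromosome 3, where 7.99% of all ACSs were Up and 13.8% Down. In that order they had 8, 3, 3, 2 and 2 Down ACSs and 0, 0, 1, 5 and 1 Up. What the chromosome has to do with the share called Down was not tested.

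Id1 and Id3, transcriptional regulators that BMP signalling induces in many cells, were lower in Adult islets at their starts and in total. The TSS-class ACS of Id1, chr3:154619890-154620169, held 7.39, 6.42 and 6.19 CPM at P10 and 1.9, 4.28 and 2.19 CPM in Adult (log2 fold change -1.25 ± 0.31, adjusted p = 0.0102). That of Id3, chr5:158263012-158263582, held 17.8, 17.4 and 18.6 and 14.1, 10.4 and 10.6 CPM (log2 fold change -0.61 ± 0.21, adjusted p = 0.0668). At both, the ages did not overlap and the call held without any 1 library. The total of Id1 went from 94, 75 and 72.7 CPM at P10 to 65.9, 54.3 and 49.5 CPM in Adult, and that of Id3 from 43.6, 46.4 and 38.6 to 35.7, 33.1 and 29 CPM. The total of Id1 changed by -0.51 ± 0.13 (adjusted p = 0.0331, called without any 1 library) and that of Id3 by -0.39 ± 0.14 (adjusted p = 0.107). The latter call was lost without Adult replicate 6 or P10 replicate 2, where the adjusted p was 0.299 to 0.395. Among the ligands, Bmp7 fell at its start, chr3:177020283-177021133, from 14.6, 15.7 and 13.5 CPM at P10 to 7.41, 10 and 7.73 CPM in Adult (log2 fold change -0.80 ± 0.22, adjusted p = 0.0226), with the call held without any 1 library. Its total held 60.4, 65.1 and 65.1 CPM at P10 and 49.1, 60.2 and 40.8 CPM in Adult and changed by -0.34 ± 0.13 (adjusted p = 0.148), a call lost without Adult replicate 4, Adult replicate 6, P10 replicate 2 or P10 replicate 3, where the adjusted p was 0.228 to 0.433. Id1 and Bmp7 both lie on chromosome 3, with its 13.8% of ACSs Down. The total of Bmp6 held 77.9, 88.3 and 97.4 CPM at P10 and 128, 93.6 and 133 CPM in Adult. It changed by 0.43 ± 0.13 (adjusted p = 0.0698), though its ages overlapped, and the call was lost without Adult replicate 4, Adult replicate 6 or P10 replicate 2, where the adjusted p was 0.231 to 0.259.

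Smad1, a SMAD of the BMP branch, rose in total from 83.8, 73.6 and 76.5 CPM at P10 to 105, 96.2 and 116 CPM in Adult (log2 fold change 0.44 ± 0.11, adjusted p = 0.0332). The call was lost without P10 replicate 2, where the adjusted p was 0.219. Smad3, which shares the activin and TGF-beta branch with Smad2, was Down at its start, chr8:68397705-68398296, with 19.5, 17.5 and 18.3 CPM at P10 and 12.7, 12.9 and 14.8 CPM in Adult (log2 fold change -0.46 ± 0.20, adjusted p = 0.174). That call held only without Adult replicate 6 and was lost without Adult replicate 4, Adult replicate 5, P10 replicate 1, P10 replicate 2 or P10 replicate 3, where the adjusted p was 0.24 to 0.318. The total of Chrd, which encodes the BMP antagonist chordin, held 65.8, 57.4 and 62.6 CPM at P10 and 84.5, 73.3 and 75.2 CPM in Adult. It changed by 0.33 ± 0.12 (adjusted p = 0.106), a call lost without Adult replicate 4 or P10 replicate 2, where the adjusted p was 0.357 to 0.408. That of Acvr1b, a type I activin receptor, held 35.7, 32.1 and 33.7 and 26.8, 29.5 and 19.7 CPM. It changed by -0.41 ± 0.16 (adjusted p = 0.139), a call lost without Adult replicate 4, Adult replicate 6 or P10 replicate 2, where the adjusted p was 0.211 to 0.41. The total of Grem1, which encodes the BMP antagonist gremlin, held 259, 319 and 338 CPM at P10 and 243, 233 and 261 CPM in Adult, and the ages overlapped. It changed by -0.31 ± 0.13 (adjusted p = 0.161) and lost its call without Adult replicate 4, Adult replicate 5, Adult replicate 6, P10 replicate 2 or P10 replicate 3, where the adjusted p was 0.217 to 0.484.

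Ltbp2, which encodes a relative of the proteins that hold latent TGF-beta in the matrix, has a single ACS, which is of the TSS class. It held 8.37, 8.27 and 5.82 CPM at P10 and 5.51, 4.87 and 4 CPM in Adult, and the ages did not overlap. It was Down by -0.63 ± 0.27 (adjusted p = 0.16), and as an ACS it lost its call without Adult replicate 5, Adult replicate 6, P10 replicate 1 or P10 replicate 2, where the adjusted p was 0.222 to 0.393. As a gene total it lost its call without Adult replicate 4, Adult replicate 6, P10 replicate 1 or P10 replicate 2, where the adjusted p was 0.224 to 0.437. Mstn encodes the ligand myostatin and had 2 TSS-class ACSs, of which 1 was called. The called one, chr9:52983072-52983290, held 2.09, 2.07 and 1.64 CPM at P10 and 4.79, 2.53 and 4.12 CPM in Adult. It was Up by 0.98 ± 0.35 (adjusted p = 0.0766), a call lost without Adult replicate 4 or P10 replicate 3, where the adjusted p was 0.254 to 0.287. The Mstn total over 9 ACSs changed the other way, by -0.23 ± 0.12, and was not called (adjusted p = 0.293). The TSS-class ACS of Acvr1, a type I receptor, chr3:49619551-49619988, held 2.37, 3.71 and 2.48 and 6.51, 3.21 and 4.51 CPM. The ages overlapped there, and it was Up by 0.75 ± 0.33 (adjusted p = 0.17), a call lost without Adult replicate 4, Adult replicate 6, P10 replicate 1 or P10 replicate 3, where the adjusted p was 0.225 to 0.568. In all, 2 of the 36 TSS-class ACSs of these genes were Up and 5 Down, or 5.56% and 13.9%, beside 2.73% and 7.87% of all TSS-class ACSs.

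**Figure D5:**
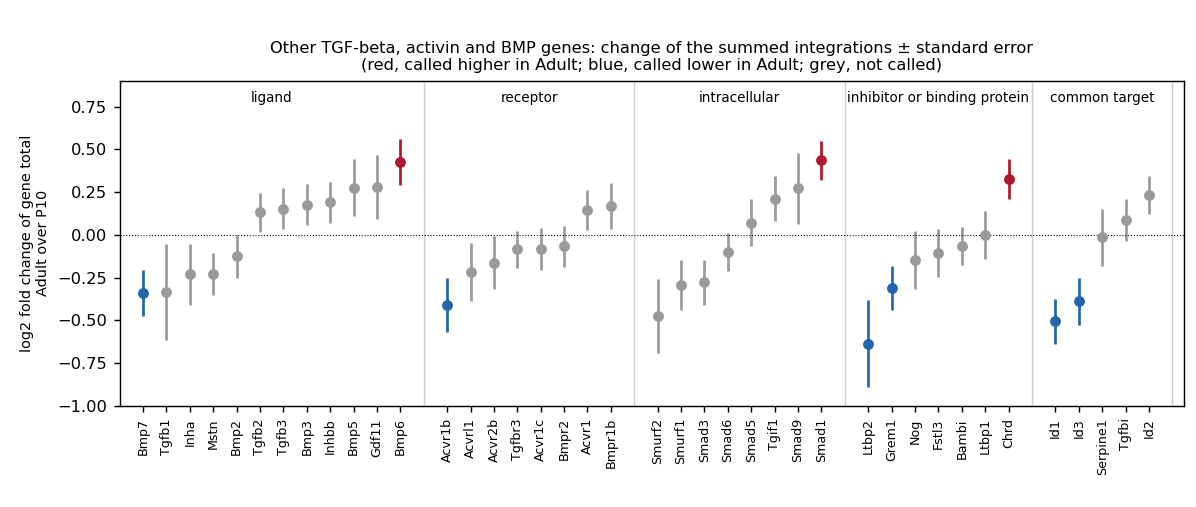
Log2 fold change, Adult over P10, of the summed integrations of each of the 40 other pathway genes with its standard error, grouped by role, with called totals in red (Up, 3) and blue (Down, 6). Called totals lie on both sides of 0 among the ligands and the inhibitors or binding proteins, and both called common targets, Id1 and Id3, lie below 0.

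Markers of islet and other cell types were summed over their TSS-class ACSs. The beta cell list (5 of 8 genes, Ins1 among them) held 177 to 297 CPM at P10 and 135 to 177 CPM in Adult, the delta cell list (2 of 2) 17.6 to 25.6 CPM at P10 and 11.6 to 13.7 CPM in Adult and the duct list (2 of 4) 11.8 to 12.6 CPM at P10 and 6.57 to 8.76 CPM in Adult, so these 3 were lower in every Adult library, the beta list by a narrow margin. Within the beta list, Ins1 (from a mean of 148 to 88.1 CPM) and Ins2 (from 11.4 to 5.24 CPM) were called Down, and Nkx6-1, Pdx1 and Slc30a8 were not called, with log2 fold changes of 0.01, -0.17 and -0.18. In the delta list 2 ACSs of Hhex were called Down (-0.83 and -0.76) and Sst was not called (-0.44). In the duct list Sox9 was called Down (-0.74) and Krt19 was not called (-0.47). Over all TSS-class ACSs the median was -0.10, with 2.73% called Up and 7.87% Down. The alpha cell list (3 of 4) held 57.2 to 70.4 CPM at P10 and 54.4 to 71.8 CPM in Adult, the acinar list (3 of 5) 24.2 to 29.3 CPM at P10 and 18.4 to 27.1 CPM in Adult, the mesenchymal list (4 of 7) 27.6 to 32.2 CPM at P10 and 25.2 to 30.2 CPM in Adult and the endothelial list (2 of 5) 28.9 to 35.5 CPM at P10 and 23.5 to 31.7 CPM in Adult, all overlapping. None of the 4 leukocyte and 2 glial markers had an ACS of this class. The part of these differences in the changes above was not tested.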

How the data were processed

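The authors aligned the ATAC-seq reads to Rn5 with BWA 0.7.13, removed those of mitochondria and of low mapping quality with SAMtools 1.3, called peaks with MACS2 2.1.1 on the pooled libraries of each age, and joined the peaks. The deposited table holds raw counts of Tn5 integrations by ACS and by library, beside the nearest gene, class and distance, which runs from the gene start to the first base of the ACS. Duplicate removal is not given in the sources used here. Columns of the authors' own comparison (log2 fold change, log2 CPM, F, p-value and FDR) were not used. Of 101941 entries, 101603 distinct ACSs entered the tests once.

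Differences were tested with edgeR 4.0.16 in R 4.3.3 (quasi-likelihood F test, TMM, age as the only term, all 6 libraries), with Benjamini-Hochberg adjustment over all ACSs or all gene totals, that is counts summed over the ACSs listed with a gene. A call needed p under 0.05 and FDR under 0.2. The standard error is the size of the log2 coefficient divided by the square root of F. The depth of a library is its sum of integrations in ACSs. Replicates of an age differed by more than counting error (chi-square per degree of freedom 3.35 to 7.81), so each counted once. The code was tested on simulated counts.

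Values per library are given for TSS-class ACSs, called ACSs (the 4 with the smallest p-values where a gene has more) and the ACS with the highest mean count of each gene, and for other pathway genes with a called total or TSS-class ACS. Members, lists and limits were chosen with earlier results of these data known. Alternatives were median-of-ratios factors, column sums or total reads (from the study's table) as library sizes, low-count filters (minimum count 10 and total 15, or a mean of at least 50), DESeq2 1.42.0, limma voom 3.58.1, cyclic loess with limma-trend, an FDR under 0.05, every listed entry kept, and leaving out each library. Figures used matplotlib 3.10.9.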

Additional observations from a re-analysis of the deposited data

How the results depend on the processing

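Calls of the members' ACSs (40 Up, 16 Down) and of the other pathway ACSs (43 Up, 44 Down) stayed within 1.5 times those counts with median-of-ratios factors, column sums, the usual low-count filter, DESeq2, limma voom, cyclic loess and every listed entry kept. With total reads as library sizes they were 2 Up and 115 Down, and 2 and 255, beside 1062 and 61663 of all 101603 ACSs. Among the 60990 ACSs of at least 50 counts on average, of which 9418 were Up and 7217 Down, the members gave 24 Up and 9 Down. At an FDR under 0.05 they gave 17 and 3, and the other genes 24 and 13. Leaving out 1 library gave 22 to 34 Up and 7 to 18 Down members, 28 to 49 Up and 23 to 46 Down other ACSs, and 0 to 2 called member totals. Over all ACSs it gave 7973 to 13232 Up and 3285 to 7215 Down. The 2 called totals became 1 with column sums, 9 with total reads (all lower in Adult) and 0 at an FDR under 0.05, where Inhba and Smad7 had an unadjusted p under 0.05 by edgeR, DESeq2 and limma voom. With total reads, which move the median of all ACSs to -0.84, these named ACSs turned to -0.11 (Acvr2a at chr3:37710915-37711436), -0.099 (Bmp4 at chr15:24443421-24443668), -0.65 (Bmp4 at chr15:24445124-24445971), -0.81 (Fst at chr2:65584152-65584353), -0.79 (Inhba at chr17:49980466-49981353), -0.27 (Smad2 at chr18:71495701-71496161), -0.020 (Smad2 at chr18:71539512-71539989), -0.078 (Smad2 at chr18:71551245-71551622), -0.75 (Smad4 at chr18:68815741-68817010), -0.032 (Smad7 at chr18:70426781-70427005), -0.69 (Smad7 at chr18:70503699-70505000), -0.85 (Smad7 at chr18:70530351-70530733), -0.74 (Tgfbr1 at chr5:67575179-67576141), -0.36 (Tgfbr2 at chr8:123715979-123716395), -0.079 (Tgfbr2 at chr8:123989902-123990394). With column sums as library sizes the sign turned at Fst (-0.041), Inhba (-0.061), Smad4 (-0.0065), Smad7 (-0.067), Tgfbr1 (-0.0029). With the filter at 50 counts the sign turned at Inhba (-0.058), Smad7 (-0.056). With cyclic loess with limma-trend the sign turned at Inhba (-0.0069), Smad7 (-0.075). In these 3 settings the Smad7 ACS is that of its start and the Fst and Inhba ACSs are those named for total reads. Leaving out 1 library turned the sign only at ACSs that were not called, with ranges of -0.062 to 0.075 (Bmpr1a at chr16:9176641-9177958), -0.17 to 0.23 (Fst at chr2:65584152-65584353), -0.19 to 0.031 (Fst at chr2:66111908-66112995), -0.091 to 0.14 (Inhba at chr17:49980466-49981353), -0.084 to 0.034 (Smad2 at chr18:71672202-71673512), -0.12 to 0.19 (Smad7 at chr18:70530351-70530733), -0.26 to 0.0017 (Tgfbr2 at chr8:123670976-123671464). The cause of these shifts was not tested. No paired analysis was possible because the P10 libraries came from pups of 3 litters and the Adult libraries from 3 other animals, with no link given between them. Intervals and standard errors cover the spread between 3 libraries an age and counting error, and 26 of the 236 ACSs had a mean under 20 integrations.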

Other observations

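A few other loci of the pathway held several calls each among the 40 further genes, and they were chosen here after their values were seen. Over all ACSs, 12.3% were Up and 6.63% Down. On chromosome 3, which carries Grem1 and Id1, these shares were 7.99% and 13.8%. Tgif1, which encodes a corepressor of SMADs, had 7 Up and 1 Down among 24 ACSs, with 3 Up without Adult replicate 4 or P10 replicate 1 and 4 without P10 replicate 2. Its Down count was 0 without P10 replicate 2 and 2 without Adult replicate 6 or P10 replicate 1. Of the 31 ACSs of Grem1, 8 were called, all Down, with 4 Down without Adult replicate 4, Adult replicate 5 or P10 replicate 3 and 3 without P10 replicate 2. Bmp2 had 2 Up and 6 Down among 25, with 2 Down without Adult replicate 5 and 3 without P10 replicate 2 or P10 replicate 3. Id2 had 6 Up and 3 Down among 22, while Id1 and Id3 had 3 and 2 Down, all their called ACSs, among 7 and 6. Without Adult replicate 4 or P10 replicate 2, Id2 had 3 Up and 1 Down. Id3 had 1 Down without Adult replicate 5, P10 replicate 1 or P10 replicate 2. The difference between Id2 and the other two was not tested.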
